A study of Mus musculus with 8 samples.

Results

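The sterol branch is the set of enzymes that turn squalene into the ring precursors of cholesterol. It was followed here through 10 genes, Sqle, Lss, Cyp51, Tm7sf2, Msmo1, Nsdhl, Hsd17b7, Ebp, Sc5d and Dhcr7, taken by gene symbol from the 55487 genes of the deposited table. All 10 symbols were found, and each gene had at least 1 FPKM in every library. Levels are FPKM, fragment numbers divided by transcript length and by the mapped fragments of the library. The liver of male wild-type C57BL/6N mice was profiled by RNA-seq in 8 libraries. Western diet + CCl4 had 1 library, western diet + oil had 2, normal diet + CCl4 had 2 and normal diet + oil had 3. Western diet meant high-fat food plus drinking water with fructose at 23.1 g/L and glucose at 18.9 g/L, and normal diet meant chow plus tap water. CCl4, a solvent that hepatocytes convert into a toxic radical, was injected into the peritoneum each week in the CCl4 groups, and all other mice received injections of corn oil, its vehicle. The dose of CCl4, the feeding time and the age of the mice are not given in the sources used here. Nothing states that libraries came from separate animals, so p-values measure only the spread between these libraries.

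Cholesterol is built from acetyl-CoA by way of mevalonate and squalene, and the sterol branch begins where squalene is oxidised and closed into rings. Its enzymes sit in the membrane of the endoplasmic reticulum, and in hepatocytes their genes are known targets of SREBP2, a transcription factor held in that membrane while sterols are plentiful and released when sterols fall. SREBP2 is known to bind sterol regulatory elements close to gene starts and to work there with NF-Y, which binds CCAAT boxes, and Sp1, which binds GC boxes.

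The promoters of the genes whose level differed most clearly between the diets are shown with that of Ebp, the gene that differed least, so that the elements just described can be read beside the values. RefSeq promoter windows (build GRCm38.p6), running from 250 bases before to 50 bases after an annotated start, were found for 9 of the 10 genes, with 3 windows for Dhcr7 and 1 for each of the others. Sqle had no entry. Capitals mark matches on either strand to a sterol regulatory element (TCACNCCAC), the form of this element known from Cyp51 (TCACCTCA), a CCAAT box (CCAAT), a GC box (GGGCGG) and an E-box (CACGTG), and 0 matches overlapped in the windows shown. The windows, read 5′ to 3′ on the strand of the gene, are chr5:4104648-4104947 (minus strand) for Cyp51, chrX:72918271-72918570 (plus) for Nsdhl, chr8:64733529-64733828 (minus) for Msmo1, chr1:169969156-169969455 (minus) for Hsd17b7, chr10:76531355-76531654 (plus) for Lss and chrX:8193463-8193762 (minus) for Ebp.
Cyp51: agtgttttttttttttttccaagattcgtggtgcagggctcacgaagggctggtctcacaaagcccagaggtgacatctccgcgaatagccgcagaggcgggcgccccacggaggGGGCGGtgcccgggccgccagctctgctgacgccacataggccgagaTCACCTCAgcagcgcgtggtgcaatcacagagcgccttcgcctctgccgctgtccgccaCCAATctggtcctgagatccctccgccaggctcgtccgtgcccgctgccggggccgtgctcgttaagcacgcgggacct
Nsdhl: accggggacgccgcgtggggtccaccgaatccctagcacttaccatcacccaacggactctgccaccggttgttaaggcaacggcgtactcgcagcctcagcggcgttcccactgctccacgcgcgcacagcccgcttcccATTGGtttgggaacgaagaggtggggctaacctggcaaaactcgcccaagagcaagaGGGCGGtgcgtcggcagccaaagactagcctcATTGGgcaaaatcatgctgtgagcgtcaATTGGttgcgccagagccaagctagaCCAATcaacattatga
Msmo1: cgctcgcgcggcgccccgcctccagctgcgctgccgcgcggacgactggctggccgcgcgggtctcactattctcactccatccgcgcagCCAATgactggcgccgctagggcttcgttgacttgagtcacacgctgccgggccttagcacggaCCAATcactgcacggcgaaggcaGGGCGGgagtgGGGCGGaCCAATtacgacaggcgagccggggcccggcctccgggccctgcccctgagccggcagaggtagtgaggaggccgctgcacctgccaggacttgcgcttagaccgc
Hsd17b7: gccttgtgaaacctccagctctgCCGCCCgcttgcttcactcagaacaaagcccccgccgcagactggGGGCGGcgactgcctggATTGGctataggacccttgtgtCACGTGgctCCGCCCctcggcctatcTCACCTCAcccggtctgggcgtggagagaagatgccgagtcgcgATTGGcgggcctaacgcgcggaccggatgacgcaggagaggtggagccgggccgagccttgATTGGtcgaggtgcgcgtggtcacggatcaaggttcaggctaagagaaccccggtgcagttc
Lss: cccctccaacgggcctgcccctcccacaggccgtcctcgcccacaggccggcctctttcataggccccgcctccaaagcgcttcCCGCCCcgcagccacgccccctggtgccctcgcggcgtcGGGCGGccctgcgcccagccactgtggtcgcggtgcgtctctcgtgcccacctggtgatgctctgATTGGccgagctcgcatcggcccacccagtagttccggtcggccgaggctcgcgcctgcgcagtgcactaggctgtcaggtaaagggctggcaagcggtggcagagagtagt
Ebp: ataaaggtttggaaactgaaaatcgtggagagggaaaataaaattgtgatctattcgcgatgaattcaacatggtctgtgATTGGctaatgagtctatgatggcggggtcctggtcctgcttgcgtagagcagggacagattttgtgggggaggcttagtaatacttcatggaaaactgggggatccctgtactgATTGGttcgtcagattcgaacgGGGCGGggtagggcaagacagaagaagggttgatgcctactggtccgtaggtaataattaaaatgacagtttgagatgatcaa
The Cyp51 form stood in 2 of the 11 windows, at position -88 of Cyp51 and position -117 of Hsd17b7, counted from the annotated start, and in 1.17% of all 32851 windows of this length. The sterol regulatory element itself stood in 0 of the 11 windows and in 1.24% of all windows. CCAAT stood in 9 of the 11 windows against 37.4% of all windows, and GGGCGG in 10 of the 11 against 35.7%. Each of the 9 genes had at least 1 window with CCAAT and at least 1 with GGGCGG, Ebp included. CACGTG stood in 3 of the 11 windows, of Hsd17b7, Sc5d and Dhcr7, against 7.15% of all windows. A match is a string of letters and not a shown binding site.

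Each library listed 12531 to 14843 genes above 0. Counts were not analysed here, which leaves the depth of the libraries unknown. In all, 11514 genes with at least 1 FPKM in at least 2 libraries were tested with limma on log2(FPKM + 1), the 10 sterol genes among them, and changes are called at an adjusted p under 0.05. Fold changes below are on this scale, which understates the change of low genes. The comparisons with normal diet + oil share the same 3 libraries. The Mup genes, abundant hepatocyte transcripts, took 8.22% of the FPKM sum with western diet + CCl4, 9.16% and 10.04% in western diet + oil libraries, 2.80% and 4.65% in normal diet + CCl4 libraries, and 16.9%, 22.1% and 32.5% in normal diet + oil libraries. Relative to normal diet + oil, the median difference over the tested genes (log2) was 0.19 for western diet + CCl4, 0.22 for western diet + oil and 0.26 for normal diet + CCl4. Under median-of-ratios scaling these medians were 0.0078, 0.0027 and 0.0026.

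Most of the branch was lower with western diet + oil. Against normal diet + oil, 6 of the 10 genes fell (Sqle, Lss, Cyp51, Msmo1, Nsdhl and Hsd17b7), 0 rose and 4 did not pass the test, where 0.599% of all tested genes fell and 3.81% rose. At an unadjusted p below 0.05, 8 of the 10 were lower, against 2.41% of tested genes. The group mean of Sqle with western diet + oil was 12.7% of the normal diet + oil mean, that of Cyp51 24.4%, that of Msmo1 24.7% and that of Nsdhl 25.7%. At the other end Ebp stood at 79.1%. The 10 log2 fold changes ran from -2.79 to -0.31 with a median of -1.21. For 8 of the 10 genes both western diet + oil libraries lay below all 3 normal diet + oil libraries, which held for 5.18% of all tested genes.

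Sqle and Lss carry out the entry into the branch. Sqle, squalene monooxygenase, adds the oxygen to squalene and is a known control point of the pathway. Sqle had 15.1 FPKM under western diet + CCl4, 4.88 and 1.09 under western diet + oil, 14.3 and 17.0 under normal diet + CCl4, and 18.9, 25.6 and 25.9 under normal diet + oil. Both western diet + oil libraries stood below all others, and the 3 normal diet + oil libraries stood above all others. Sqle fell by 2.79 on the log2 scale with western diet + oil against normal diet + oil (SE 0.39, limma adjusted p = 0.0183), the widest difference of the 10. Lss, lanosterol synthase, closes the squalene epoxide into the ring system. Lss had 3.71 FPKM under western diet + CCl4, 4.82 and 2.95 under western diet + oil, 5.09 and 4.69 under normal diet + CCl4, and 8.17, 8.70 and 9.09 under normal diet + oil. The 5 libraries of the other groups overlapped each other and all lay below normal diet + oil. Lss fell by 1.01 with western diet + oil against normal diet + oil (SE 0.19, limma adjusted p = 0.0312).

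Cyp51, Tm7sf2, Msmo1, Nsdhl and Hsd17b7 act on lanosterol and strip its extra methyl groups. Cyp51, the cytochrome P450 that removes a methyl group from lanosterol, had 17.5 FPKM under western diet + CCl4, 11.3 and 6.60 under western diet + oil, 19.6 and 31.1 under normal diet + CCl4, and 43.3, 32.6 and 34.0 under normal diet + oil. The 4 groups did not overlap at any point. Cyp51 fell by 1.95 with western diet + oil against normal diet + oil (SE 0.28, limma adjusted p = 0.0193). Tm7sf2, a sterol reductase that saturates the double bond left by Cyp51, had 29.7 FPKM under western diet + CCl4, 27.0 and 17.6 under western diet + oil, 23.3 and 54.8 under normal diet + CCl4, and 73.2, 61.4 and 46.1 under normal diet + oil. Its western diet + oil libraries lay below all 3 normal diet + oil libraries, and normal diet + CCl4 library 2 lay among the normal diet + oil values. Its difference between western diet + oil and normal diet + oil was -1.40 (SE 0.37, limma adjusted p = 0.0743) and did not pass.

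Msmo1, a methylsterol monooxygenase, and Nsdhl, the dehydrogenase that releases the oxidised group as carbon dioxide, work in sequence on the remaining methyl groups. Msmo1 had 27.4 FPKM under western diet + CCl4, 17.2 and 13.6 under western diet + oil, 19.5 and 44.0 under normal diet + CCl4, and 66.1, 57.3 and 63.6 under normal diet + oil. The western diet + oil libraries were the lowest and the normal diet + oil libraries the highest, with no overlap. Msmo1 fell by 1.96 with western diet + oil against normal diet + oil (SE 0.31, limma adjusted p = 0.0235). Nsdhl had 15.4 FPKM under western diet + CCl4, 10.9 and 6.99 under western diet + oil, 21.1 and 30.4 under normal diet + CCl4, and 37.2, 35.0 and 32.3 under normal diet + oil. As with Cyp51, none of the groups overlapped. Nsdhl fell by 1.88 with western diet + oil against normal diet + oil (SE 0.23) and had the smallest limma adjusted p of the 10 genes, 0.0142. Hsd17b7, the ketosteroid reductase that completes each round of demethylation, had 3.69 FPKM under western diet + CCl4, 4.18 and 2.63 under western diet + oil, 4.77 and 5.00 under normal diet + CCl4, and 8.08, 6.95 and 7.65 under normal diet + oil. All 5 libraries of the other groups lay below normal diet + oil. Hsd17b7 fell by 0.98 with western diet + oil against normal diet + oil (SE 0.18, limma adjusted p = 0.0309).

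Ebp, Sc5d and Dhcr7 place and remove the ring double bonds at the end of the branch, and 0 of these 3 genes passed the test. Ebp, the sterol isomerase that shifts a double bond within the ring, had 84.2 FPKM under western diet + CCl4, 77.7 and 78.9 under western diet + oil, 91.5 and 116 under normal diet + CCl4, and 123, 95.8 and 78.1 under normal diet + oil. Normal diet + oil overlapped every other group and alone covered nearly the whole range, while the other groups did not overlap each other. The difference between western diet + oil and normal diet + oil was -0.31 (95% interval -0.84 to 0.22, limma adjusted p = 0.458), and under median-of-ratios scaling it was -0.58 (limma adjusted p = 0.265). Sc5d, the desaturase that acts on lathosterol, had 47.9 FPKM under western diet + CCl4, 93.8 and 49.3 under western diet + oil, 52.0 and 80.3 under normal diet + CCl4, and 114, 106 and 89.3 under normal diet + oil. Its western diet + oil library 1 lay within the normal diet + oil range and library 2 far below it. The difference was -0.58 (95% interval -1.30 to 0.13, limma adjusted p = 0.304). Dhcr7, dehydrocholesterol reductase, had 23.5 FPKM under western diet + CCl4, 23.7 and 13.1 under western diet + oil, 24.0 and 24.6 under normal diet + CCl4, and 33.7, 30.6 and 32.8 under normal diet + oil. All 5 libraries of the other groups lay below normal diet + oil, and the difference for western diet + oil was -0.84 (SE 0.24, limma adjusted p = 0.0867), which did not pass.

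**Figure D1:**
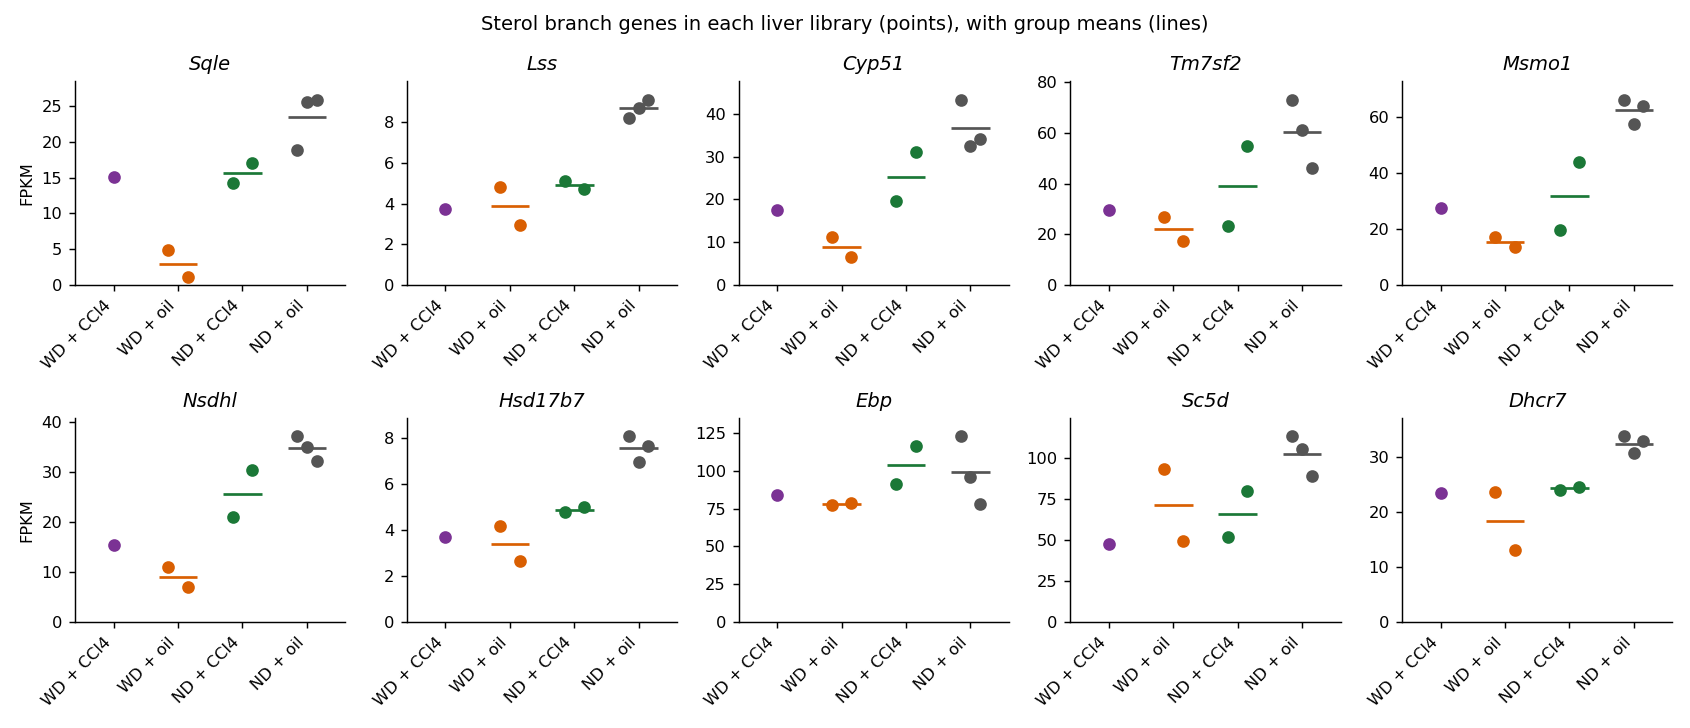
FPKM of each of the 10 sterol branch genes in each library (vertical axis, linear, with its own scale for each gene), by group along the horizontal axis; points are libraries, lines are group means, WD is western diet and ND is normal diet. Sqle, Cyp51, Msmo1 and Nsdhl show western diet + oil lowest and normal diet + oil highest, each apart from the other groups. For Ebp, normal diet + oil overlaps every other group.

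The count of 6 fell without any 1 of the normal diet + oil libraries, and so did the count over all tested genes. Leaving out 1 western diet + oil library leaves 1 in that group, assumed to vary like the other groups, so calls are not given. The Sqle difference was -2.04 without western diet + oil library 2. Without normal diet + oil library 1 Sqle and Nsdhl passed, without library 2 Nsdhl, and without library 3 Sqle, Cyp51 and Nsdhl. Of all tested genes 24, 20 and 29 then fell, against 69 with all libraries. The sign was negative for all 10 genes in each of the 16 alternatives to the fit. Under median-of-ratios scaling, where 72 genes of the whole table fell and 217 rose, against 69 and 439 here, Sqle, Lss, Cyp51, Msmo1, Nsdhl and Hsd17b7 passed again, Sqle stood at -3.02, and all 10 genes were lower at an unadjusted p below 0.05, against 6.37% of tested genes. In liver tissue fewer hepatocytes and less RNA per hepatocyte cannot be told apart.

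Between normal diet + CCl4 and normal diet + oil, 0 of the 10 genes passed (limma), where 0.4% of tested genes fell and 1.02% rose. At an unadjusted p below 0.05, 3 genes were lower (Lss, Msmo1 and Hsd17b7), against 2.18% of tested genes. Under median-of-ratios scaling 8 were, all but Sqle and Ebp, against 5.74% of tested genes, and the median over the 10 genes was -0.86. Msmo1, the methylsterol monooxygenase, had the widest difference, -1.06 (SE 0.31, limma adjusted p = 0.131), with a group mean at 51.0% of that of normal diet + oil. Lss had -0.71 (SE 0.19, limma adjusted p = 0.113) and Hsd17b7 -0.54 (SE 0.18, limma adjusted p = 0.160). Sqle had -0.55 (SE 0.39, limma adjusted p = 0.390), its mean standing at 66.7% of the normal diet + oil mean. The 10 differences ran from -1.06 to 0.08 with a median of -0.54. For 8 of the 10 genes, all but Tm7sf2 and Ebp, both normal diet + CCl4 libraries lay below every normal diet + oil library, which held for 3.8% of tested genes. Ebp, at 0.08 (95% interval -0.45 to 0.62), turned negative under median-of-ratios scaling (-0.24), with the Mup genes removed (-0.062), with the replicate number as a block (-0.071), without normal diet + CCl4 library 2 (-0.088) and without normal diet + oil library 3 (-0.071). Without normal diet + CCl4 library 2 the Msmo1 difference was -1.62, with 1 library left in the group. Library 2 was the higher of its pair for 9 of the 10 genes, so the group held a wide spread: Msmo1 read 19.5 and 44.0 FPKM, and Tm7sf2 23.3 and 54.8.

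The single western diet + CCl4 library lay below all 3 normal diet + oil libraries for 9 of the 10 genes, the exception being Ebp, and 13.4% of tested genes did so. Again 0 genes passed (limma), where 0.261% of tested genes fell and 0.669% rose, and 6 were lower at an unadjusted p below 0.05 (Lss, Cyp51, Msmo1, Nsdhl, Hsd17b7 and Sc5d), against 2.67% of tested genes. All 10 differences were negative, from -1.15 for Msmo1 to -0.21 for Ebp, with a median of -0.99. Lss had -1.03 (SE 0.24, limma adjusted p = 0.102) and Sc5d, the lathosterol desaturase, -1.08 (SE 0.39, limma adjusted p = 0.245). Sqle, the gene lowest relative to normal diet + oil with western diet + oil, had -0.59 (SE 0.49, limma adjusted p = 0.617). The group has no replicate, so its spread was taken from the other groups. Simulated falls close in size to the median of -0.99 were not recovered in this comparison, so 0 genes passing cannot show that levels were equal. The Msmo1 difference of -1.15 does not draw on the normal diet + CCl4 libraries, so leaving out 1 of them could not move it.

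Set against each other, the 3 groups other than normal diet + oil did not differ by any call in the branch. Between western diet + oil and normal diet + CCl4, 0 genes passed (limma), where 0.208% of tested genes fell and 0.408% rose, and 4 were lower at an unadjusted p below 0.05 (Sqle, Cyp51, Msmo1 and Nsdhl), against 5.75% of tested genes. Nsdhl had -1.43 (SE 0.25, limma adjusted p = 0.0591), Cyp51 -1.41 (SE 0.30, limma adjusted p = 0.107) and Sqle -2.24 (SE 0.43, limma adjusted p = 0.0738). For these genes the western diet + oil libraries lay below both normal diet + CCl4 libraries, a pattern that was not counted over all tested genes.

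Between western diet + CCl4 and western diet + oil, 0 genes passed (limma), where 0.0261% of tested genes rose and 0.0174% fell, and 3 were higher at an unadjusted p below 0.05 (Sqle, Cyp51 and Nsdhl), against 1.93% of tested genes. Sqle, with 15.1 FPKM in western diet + CCl4 and 4.88 and 1.09 FPKM in western diet + oil, had a difference of 2.2 (SE 0.52, limma adjusted p = 0.564). Cyp51 had 0.93 and Nsdhl 0.75. The western diet + CCl4 library lay above both western diet + oil libraries for 6 of the 10 genes, and for 26.4% of all tested genes. Between western diet + CCl4 and normal diet + CCl4, 0 genes passed (limma), where 0.0955% of tested genes fell and 0.165% rose, and 0 were lower or higher at an unadjusted p below 0.05, where 3.91% of tested genes were lower. There, all 10 differences lay between -0.68 (Nsdhl) and -0.04 (Sqle and Dhcr7).

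The interaction term asks whether the CCl4 difference was the same under both diets. In this term 0 genes passed (limma), where 0.0347% of tested genes were called higher and 0.0261% lower, and 4 were positive at an unadjusted p below 0.05 (Sqle, Cyp51, Msmo1 and Nsdhl), against 1.43% of tested genes. Under median-of-ratios scaling 7 were, with Lss, Hsd17b7 and Dhcr7 added, against 2.97% of tested genes, and 0 passed. The estimate was 2.75 for Sqle (SE 0.65, limma adjusted p = 0.278) and 1.86 for Msmo1 (SE 0.52, limma adjusted p = 0.373). The median over the 10 genes was 0.96, beside -0.29 over all tested genes. For Sqle, Cyp51, Msmo1 and Nsdhl, 4 of the 10, every normal diet + CCl4 library lay below normal diet + oil and the western diet + CCl4 library lay above both western diet + oil libraries, as for 0.869% of tested genes. For Ebp the estimate was 0.02 (95% interval -0.88 to 0.91). The estimates of all 10 genes stayed positive without normal diet + CCl4 library 2, western diet + oil library 1, or normal diet + oil library 2 or 3. Without normal diet + CCl4 library 1, 2 of the 10 were negative. Without western diet + oil library 2, or without normal diet + oil library 1, 1 of the 10 was negative. Leaving out 1 western diet + oil or normal diet + CCl4 library leaves 1 in that group.

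**Figure D2:**
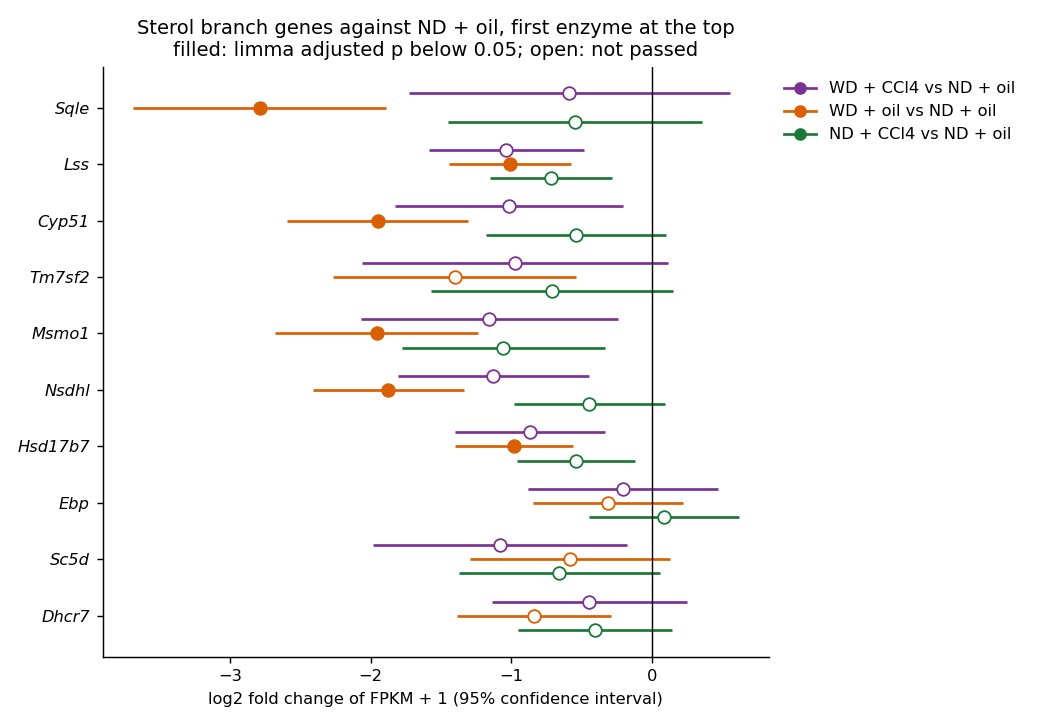
Log2 fold change on the log2(FPKM + 1) scale with 95% intervals from limma for each sterol branch gene in each comparison with normal diet + oil; filled points passed the test and open ones did not. Western diet + oil reaches -2.79 for Sqle, while the intervals of Ebp include 0 in all 3 comparisons.

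The 10 genes kept to a common order of groups with few exceptions. For 7 of the 10, group means went up in the order western diet + oil, western diet + CCl4, normal diet + CCl4, normal diet + oil. Cyp51 and Nsdhl showed this order with no overlap between neighbouring groups. The share of all tested genes with this order, with or without overlap, was not counted, so how unusual it is was not tested. For Sqle, Tm7sf2 and Msmo1 the western diet + CCl4 library lay within the normal diet + CCl4 range, and for Hsd17b7 and Dhcr7 it lay within the western diet + oil range. Lss was lowest with western diet + CCl4, whose value lay within the western diet + oil range. Sc5d was lowest with western diet + CCl4, and Ebp was highest with normal diet + CCl4, whose Ebp range overlapped that of normal diet + oil. Western diet + oil library 2 held the lowest value of all libraries for 8 of the 10 genes and was below library 1 for 9.

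With normal diet + oil the mean level per transcript length was highest for Sc5d (103 ± 12.4 FPKM, SD, n = 3) and Ebp (98.9 ± 22.5), which overlapped. Msmo1 (62.4 ± 4.54) and Tm7sf2 (60.2 ± 13.6) came next and overlapped as well. Cyp51 (36.6 ± 5.82), Nsdhl (34.8 ± 2.46) and Dhcr7 (32.4 ± 1.60) followed, each overlapping its neighbour. Sqle (23.5 ± 3.94), Lss (8.65 ± 0.460) and Hsd17b7 (7.56 ± 0.572) were lowest and each stood apart. Sqle differed most and Ebp least with western diet + oil. The 2 genes were picked for this, so their ratio describes the values and tests nothing. The level of Ebp was 5.56 times that of Sqle under western diet + CCl4, 15.9 and 72.7 times under western diet + oil, 6.40 and 6.85 times under normal diet + CCl4, and 6.50, 3.75 and 3.02 times under normal diet + oil. With this choice of genes, the ratio with western diet + oil lay above that of every other library, and 72.7 rests on Sqle at 1.09 FPKM.

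Over the 8 libraries the log2 levels of the 10 genes ran together to different degrees. Pearson's r over the 45 pairs had a median of 0.828, from 0.309 between Ebp and Lss to 0.991 between Nsdhl and Cyp51. Against the mean of the scaled values of all 10, r was 0.637 for Ebp, 0.782 for Sc5d and 0.879 to 0.978 for the other 8. These values describe 8 points that share libraries, groups and the Mup share, and carry no test.

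Nearby genes limit what a few of the values can say. By GENCODE M21 on GRCm38, Tm7sf2 (chromosome 19, 6062821 to 6068373, minus strand) overlaps Vps51 on the same strand, which reached at most 7.59 FPKM. Cyp51 (chromosome 5, 4081145 to 4104746, minus strand) overlaps Akap9 on the opposite strand, at most 1.77 FPKM. Lss (chromosome 10, 76531588 to 76557138, plus strand) overlaps an antisense transcript listed at 0 in all libraries. The other 7 genes overlap no annotated gene, and all 10 are protein-coding.

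The mevalonate branch holds the enzymes upstream of squalene. With western diet + oil against normal diet + oil, 4 of the 9 mevalonate genes fell, 0 rose and 5 did not pass, with a median log2 fold change of -0.92, where 0.599% of all tested genes fell. Idi1, the isomerase of isopentenyl diphosphate, had 14.4 FPKM under western diet + CCl4, 6.43 and 3.20 under western diet + oil, 14.9 and 29.3 under normal diet + CCl4, and 32.3, 30.4 and 39.1 under normal diet + oil. Its western diet + oil libraries lay below all others, and it fell by 2.64 (SE 0.33, limma adjusted p = 0.0142). Hmgcs1, which makes HMG-CoA, fell by 1.95 (SE 0.37, limma adjusted p = 0.0322), Fdft1, which makes squalene, by 1.34 (SE 0.22, limma adjusted p = 0.0239), and Mvk, mevalonate kinase, by 0.88 (SE 0.15, limma adjusted p = 0.0272). Without any 1 of the normal diet + oil libraries 1 of the 9 passed, where 20 to 29 of all tested genes fell, against 69 with all libraries.

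For normal diet + CCl4 and for western diet + CCl4 against normal diet + oil, 0 of the 9 mevalonate genes passed (limma), with 6 lower at an unadjusted p below 0.05 in each (against 2.18% and 2.67% of all tested genes), all 9 differences negative, and medians of -0.75 and -1.06. Leaving out 1 of the normal diet + CCl4 libraries leaves 1 in that group, so the calls of those fits are not given for this list.

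Of the 5 electron donors that serve these oxidations, such as Por and Cyb5a, 0 passed with western diet + oil (limma) and 0 were past an unadjusted p below 0.05.

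Of the 8 tested genes of sterol sensing and uptake, 0 passed with western diet + oil (limma) and 3 were lower at an unadjusted p below 0.05, against 2.41% of all tested genes. Srebf2, which encodes SREBP2, had 7.67 FPKM under western diet + CCl4, 7.85 and 5.73 under western diet + oil, 7.39 and 6.35 under normal diet + CCl4, and 6.29, 6.41 and 8.36 under normal diet + oil. Its groups overlapped, and the difference for western diet + oil was -0.05 (SE 0.19, limma adjusted p = 0.910).

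Of the 10 tested genes of the LXR axis and sterol efflux, 1 rose with western diet + oil, where 3.81% of all tested genes rose, 0 fell, and 7 were higher at an unadjusted p below 0.05, as were 20.9% of all tested genes. Abcg1, a cholesterol exporter, had 1.63 FPKM under western diet + CCl4, 2.35 and 2.86 under western diet + oil, 2.64 and 0.610 under normal diet + CCl4, and 0.325, 0.359 and 0.407 under normal diet + oil. Both western diet + oil libraries lay above all 3 normal diet + oil libraries, as for 40.7% of all tested genes. The difference was 1.40 (SE 0.31, limma adjusted p = 0.0493). All 3 normal diet + oil values lay below the 1 FPKM of the filter, so Abcg1 was tested only because of its levels in the other groups. Without any 1 of the normal diet + oil libraries 0 of the 10 passed, where 49 to 90 of all tested genes rose, against 439 with all libraries.

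In the comparisons of normal diet + CCl4 and western diet + CCl4 with normal diet + oil, 0 genes passed (limma) in any of these 3 surrounding lists. At an unadjusted p below 0.05, 3 of the 8 sensing and uptake genes were lower for normal diet + CCl4, against 2.18% of all tested genes, and 4 for western diet + CCl4, against 2.67%. Of the 10 LXR and efflux genes 2 were higher for normal diet + CCl4 and 1 for western diet + CCl4, shares no higher than the 20.6% and 12.6% of all tested genes. Of the 5 electron donors 1 was higher for normal diet + CCl4, against 20.6%, and 1 lower for western diet + CCl4, against 2.67%. Calls from fits without 1 of the normal diet + CCl4 libraries are not given for these lists, since 1 library is then left in that group.

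**Figure D3:**
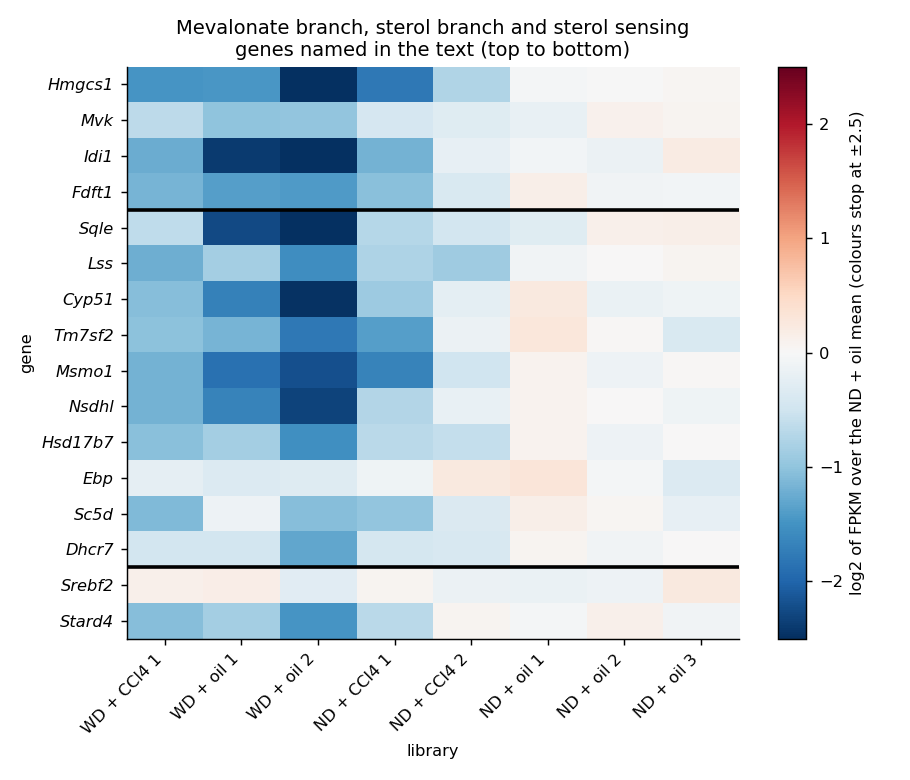
Log2 of the FPKM of each gene over its normal diet + oil mean, by library (columns, grouped) for 4 mevalonate branch genes, the 10 sterol branch genes, and Srebf2 and Stard4 of the sterol sensing list (rows). The western diet + oil columns are lowest for Sqle and Idi1, while Srebf2 stays near its normal diet + oil mean.

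The 10 tested genes outside the branch whose log2 levels over the 8 libraries were most like the mean of the branch were Rdh11 (r = 0.988), Hmgcs1 (0.965), Fdft1 (0.953), Stard4 (0.948), Idi1 (0.946), Klhl2 (0.934), Yod1 (0.931), Agxt (0.930), Klkb1 (0.927) and Gjb1 (0.926). Hmgcs1, Fdft1 and Idi1 belong to the mevalonate branch, and Stard4, a sterol carrier protein, to the sensing and uptake list. Rdh11, a microsomal retinol dehydrogenase, had 6.95 FPKM under western diet + CCl4, 7.65 and 4.06 under western diet + oil, 8.60 and 12.2 under normal diet + CCl4, and 21.3, 19.1 and 13.9 under normal diet + oil. Its 3 normal diet + oil libraries lay above all others, and it fell by 1.51 with western diet + oil (SE 0.28, limma adjusted p = 0.0322). Klhl2 lies beside Msmo1 on chromosome 8, at 64739675 to 64850017 where Msmo1 spans 64718139 to 64733792. Klhl2 averaged 3.35 FPKM with western diet + oil and 5.04 FPKM with normal diet + oil, a difference of -0.49 (SE 0.16, limma adjusted p = 0.127) that did not pass. Likeness was the Pearson r alone, and the points share libraries and groups. The 10 genes were picked on these same 8 libraries, so their differences between groups describe them and are no separate test.

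Summed over the 10 genes, the branch stood at 268 FPKM under western diet + CCl4, 275 and 193 under western diet + oil, 275 and 408 under normal diet + CCl4, and 525, 460 and 419 under normal diet + oil. All normal diet + oil libraries lay above all others. Hepatocytes, the main site of these enzymes in liver, were present in every library by their markers. The 9 hepatocyte markers, none of them at 0, summed to 38593 FPKM under western diet + CCl4, 39435 and 31624 under western diet + oil, 57708 and 50028 under normal diet + CCl4, and 43650, 39261 and 34998 under normal diet + oil. Those sums overlapped between western diet + oil and normal diet + oil. By gene, 0 of the 9 passed (limma) with western diet + oil and 2 were lower at an unadjusted p below 0.05, against 2.41% of all tested genes. Serpina1a, Cps1 and Hnf4a, 3 of the 9, were lower in both western diet + oil libraries than in all normal diet + oil libraries, which held for 5.18% of all tested genes. Per 1000 FPKM of hepatocyte markers, the branch had 6.95 FPKM under western diet + CCl4, 6.98 and 6.09 under western diet + oil, 4.77 and 8.16 under normal diet + CCl4, and 12.0, 11.7 and 12.0 under normal diet + oil. On this measure too, every normal diet + oil library lay above all others. Alb was the largest part of the marker sum in every library. Its normal diet + CCl4 mean was 173% of the normal diet + oil mean, where that of Fgb was 58.2%. For normal diet + CCl4 the measure therefore leans on Alb, and it was not tested without Alb.

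Markers of other liver cells moved with the groups. The 10 macrophage markers, none at 0 in any library, summed to 431 FPKM under western diet + CCl4, 521 and 1067 under western diet + oil, 431 and 149 under normal diet + CCl4, and 66.8, 142 and 135 under normal diet + oil. All 10 were higher in both western diet + oil libraries than in all normal diet + oil libraries, which held for 40.7% of all tested genes, and 8 of the 10 rose (limma), against 3.81% of all tested genes. Marco, a scavenger receptor of resident macrophages, rose by 3.65 (SE 0.44, limma adjusted p = 0.0139). In the same comparison 2 of 8 stellate cell, 3 of 6 endothelial and 3 of 5 erythroid markers rose, and 0 markers fell. Western diet + oil library 2, the lowest for most sterol genes, had the highest sum. The 8 stellate cell markers, none at 0, summed to 88.1 FPKM under western diet + CCl4, 114 and 131 under western diet + oil, 62.0 to 173 under normal diet + CCl4, and 35.0 to 46.0 under normal diet + oil. The 6 endothelial markers, none at 0, summed to 36.8 FPKM under western diet + CCl4, 62.8 and 62.0 under western diet + oil, 76.3 and 49.1 under normal diet + CCl4, and 25.1 to 40.3 under normal diet + oil. The sums of both lists were higher in both western diet + oil libraries than in any normal diet + oil library.

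Spp1, which is not exclusive to cholangiocytes, made up most of the sum of the 5 cholangiocyte markers, and the other 4 stayed between 0 and 1.54 FPKM in every library. The sum was 174 FPKM under western diet + CCl4, 60.4 and 97.2 under western diet + oil, 459 and 28.6 under normal diet + CCl4, and 18.5 to 39.8 under normal diet + oil, with Krt7 at 0 in normal diet + CCl4 library 2 and in all normal diet + oil libraries, and Sox9 or Epcam at 0 in some normal diet + oil libraries. The 5 erythroid markers, none at 0, summed to 732 FPKM under western diet + CCl4, 928 and 554 under western diet + oil, 253 and 282 under normal diet + CCl4, and 230 to 350 under normal diet + oil. The 6 lymphocyte markers summed to between 0.372 and 1.80 FPKM in every library, with 3 to 5 of them at 0. The part of these cells in the results for the branch was not tested.

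**Figure D4:**
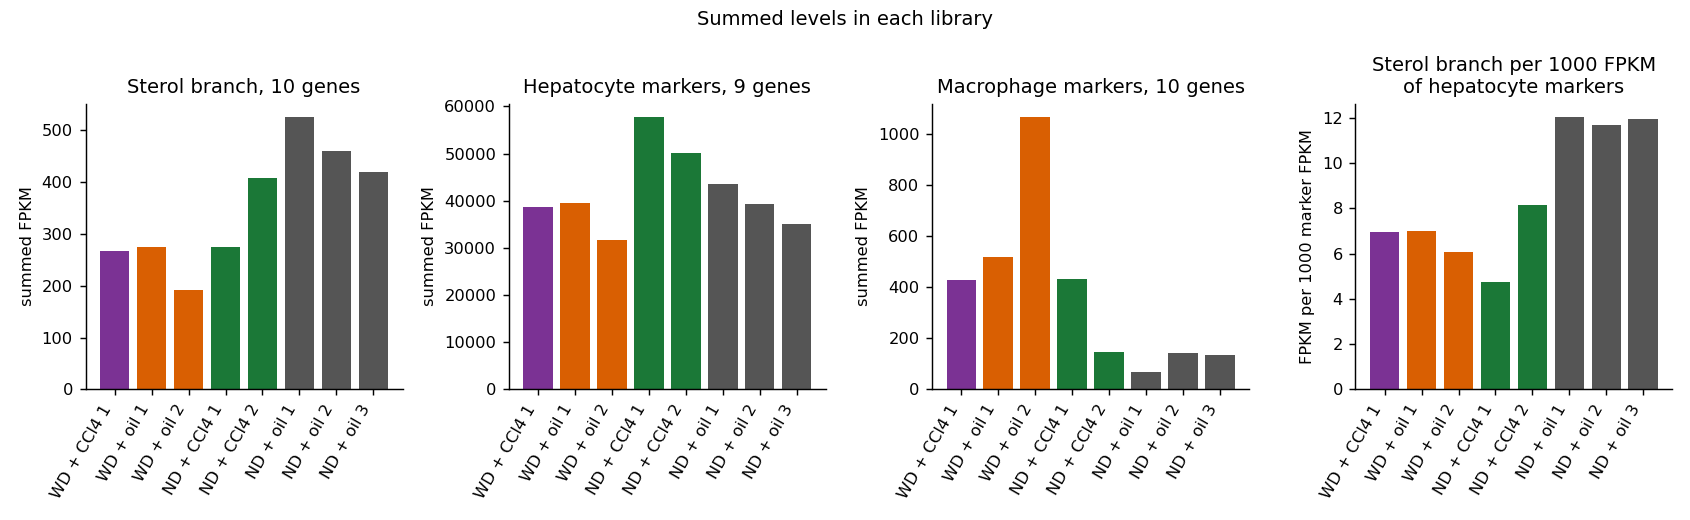
Summed FPKM of the 10 sterol branch genes, of 9 hepatocyte markers and of 10 macrophage markers, and branch FPKM per 1000 FPKM of hepatocyte markers (vertical axes start at 0), with 1 bar for each library. The branch sum and the branch per hepatocyte marker are highest in the 3 normal diet + oil libraries (419 to 525 FPKM, and 11.7 to 12.0), and the macrophage sum is highest in western diet + oil library 2 (1067 FPKM).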

How the data were processed

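Liver RNA was sequenced in 8 libraries of 4 groups, made with a TruSeq Stranded mRNA kit according to the labels' protocols. The values deposited by the authors are FPKM for 55487 genes. Per the submitters' processing notes, the tools were HISAT2 2.2.1, StringTie 2.1.0, cutadapt 3.7 and FastQC 0.11.9, and the build was GRCm38; their order and settings are not given in the sources used here. No counts were analysed, so depth and counting error are unknown.

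Genes with at least 1 FPKM in at least 2 libraries (11514) were fitted on log2(FPKM + 1) by limma 3.58.1 (R 4.3.3; eBayes with a trend) in 1 fit of all 8 libraries with a mean per group, giving 4 residual and 7.93 total degrees of freedom. The western diet + CCl4 group has 1 library and its spread was taken from the other groups. The 7 contrasts used two-sided p-values adjusted by Benjamini-Hochberg over all tested genes of a contrast. The fit was checked on simulated data with known changes. It recovered nearly all of the larger changes. In each comparison with normal diet + oil it missed most of the smaller ones, and for western diet + CCl4 all of them. No pair of libraries was a copy. No member shared a transcript stretch of 300 bases at 90% identity with another gene. Tables and correlations were made in Python 3.11.15.

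The 10 members, the pathway lists and the marker lists were chosen with earlier results of these data known. The genes named are all members; up to 4 genes with the smallest p among those passing against normal diet + oil in each other pathway list; the 10 genes most correlated with the members' mean, without predicted genes and clones (each with its correlation); and Srebf2. Marco, a marker, was named after its values were seen. A few genes that the rule covers are not reported here. Tf was not analysed here. As alternatives, the fit was repeated without a filter, with a mean of at least 5 FPKM, with a pseudocount of 0.1, with median-of-ratios scaling, without the Mup genes (rescaled), with the replicate number as a block, with robust eBayes, on the compared groups alone, and without each library in turn.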

Additional observations from a re-analysis of the deposited data

Results flagged for a closer look

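For 4 sterol branch genes the CCl4 difference ran in opposite directions under the 2 diets: every normal diet + CCl4 library lay below every normal diet + oil library, and the single western diet + CCl4 library lay above both western diet + oil libraries. Of all tested genes 0.869% showed this pattern. The genes were picked for it, and the estimates that follow describe them. The interaction estimate on the log2(FPKM + 1) scale, CCl4 minus oil with the western diet less CCl4 minus oil with the normal diet, was 2.75 for Sqle (SE 0.65, limma adjusted p = 0.278), 1.86 for Msmo1 (SE 0.52, limma adjusted p = 0.373), 1.47 for Cyp51 (SE 0.46, limma adjusted p = 0.417) and 1.19 for Nsdhl (SE 0.39, limma adjusted p = 0.433). None of these 4 passed the test over all genes, and each rests on 1 western diet + CCl4 library.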

How the results depend on the processing

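With western diet + oil against normal diet + oil, 6 sterol branch genes passed, and 6 passed with a pseudocount of 0.1, a mean of at least 5 FPKM, median-of-ratios scaling, the Mup genes removed or robust eBayes. The compared groups alone gave 7, no filter gave 1 (Nsdhl), and leaving out 1 library gave 0 to 7. The samples share only a replicate number: deviations of same-numbered libraries correlated at -0.279 to -0.014, and with the replicate number as a block 0 members passed. Leaving out 1 library gave 0 to 1 members in the interaction and for either CCl4 group against normal diet + oil. Between western diet + oil and normal diet + CCl4, 1 member passed (Nsdhl) with a mean of at least 5 FPKM. The cause was not tested. Ebp for normal diet + CCl4 (0.08) turned to -0.24 under median-of-ratios scaling, -0.062 without the Mup genes and -0.071 with the block, and ran from -0.088 (without normal diet + CCl4 library 2) to 0.26 (without its library 1) when 1 library was left out. All other members kept their sign against normal diet + oil in all alternatives run. Genes passing in the whole table numbered 4 to 1159 over the alternatives for western diet + oil (508 in the fit reported), 18 to 1165 for normal diet + CCl4 (164) and 6 to 486 for western diet + CCl4 (107). Under median-of-ratios scaling 54 fell and 36 rose for normal diet + CCl4, against 46 and 118. A fit of the compared groups alone was not possible for contrasts with western diet + CCl4. Groups of 1 to 3 libraries limit what can pass.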
